A study of Caenorhabditis elegans with 26 samples.

Results

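The genes described are those of the cytosolic ribosomal proteins of Caenorhabditis elegans, taken as every gene whose name in the WBcel235 annotation begins with rpl- (large subunit) or rps- (small subunit). The rule found 78 of the 22277 genes in the count table, 47 of the large and 31 of the small subunit, and used no measured value. It went by name alone, and whether each gene encodes a protein of the mature ribosome was not checked. The values are reads of cloned small RNAs that fell on these genes, not levels of their mRNAs. Libraries came from 3 groups of 2: rde-3 mut-16(DE6R), which carries an rde-3 allele together with mut-16(DE6R), mut-16(DE6R) alone, and wild type (WT). Both mutant groups thus share mut-16(DE6R). The labels describe lysed worms, with no tissue, stage, culture or clone given, so p-values measure the spread between a pair of libraries of each group, which may be technical rather than between worms.

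Ribosomal proteins coat the rRNA of both ribosomal subunits. Proteins of the large subunit surround the peptidyl transferase centre and the exit tunnel of the growing chain, and those of the small subunit form the mRNA channel and the decoding centre. Their mRNAs are among the most abundant of a growing cell and of the worm germline. In C. elegans, RNA-dependent RNA polymerases make secondary small RNAs of the 22G class, antisense to mRNAs. The pool bound by the Argonaute CSR-1 covers many expressed germline genes, whereas other pools need the mutator foci, whose scaffold is MUT-16, and RDE-3 (MUT-2), a nucleotidyltransferase that tails the template RNAs.

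The 6 libraries held 515300 to 1571194 reads, from which the 78 genes drew 1557 reads in rde-3 mut-16(DE6R), 2733 in mut-16(DE6R) and 1208 in WT. The gene F56H9.8 took 55.5% of the reads in both rde-3 mut-16(DE6R) libraries, 37.5% and 37.6% in mut-16(DE6R), against 49.5% and 51.7% in WT, and mitochondrial genes took 4.39% and 4.58% in rde-3 mut-16(DE6R), 4.30% and 4.39% in mut-16(DE6R), against 2.20% and 2.41% in WT. Levels are therefore given as CPM, reads scaled to a common library size set by edgeR's TMM factors, which set the bulk of genes equal. Scaled sizes were 1.24 to 1.25 times the read total in rde-3 mut-16(DE6R), 1.32 to 1.33 times in mut-16(DE6R) and 0.572 to 0.584 times in WT. Small RNAs on mut-16 and rde-3 themselves (0 to 8 reads per library) do not read out the alleles.

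How a gene's transcripts were listed moved with its read count. The 54 genes with 1 listed transcript held a median of 84 reads over the 6 libraries, or 156 reads per kilobase, and rpl-37 alone among them held 0. The 24 genes with several listed transcripts held a median of 5 reads, or 10.8 per kilobase, and rpl-25.2, rpl-26 and rps-24 held 0. Within these 24 genes, 32 transcripts had no base that another transcript of the gene did not also cover, and 31 of them were listed at 0 reads. The 16 transcripts with at least 22 bases of their own held 558 of the 574 reads. For example, rpl-11.1 had 209 reads, all on the transcript with 465 bases of its own, and rpl-12 had 90 reads with 528 such bases. Over all genes with several transcripts, 96.8% of the 7531 transcripts without a base of their own were listed at 0. A low count of such a gene is therefore not read as a low level, and levels are compared between genes for the 54 alone.

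**Figure D1:**
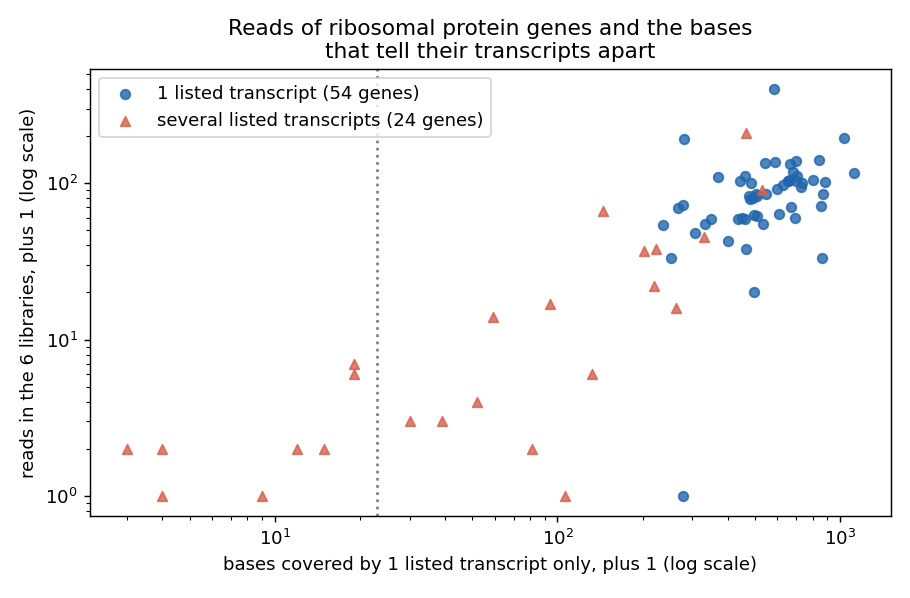
Reads of each of the 78 ribosomal protein genes summed over the 6 libraries, against the number of its bases covered by 1 listed transcript only; both axes are logarithmic with 1 added. Circles are the 54 genes with 1 listed transcript and triangles the 24 with several, and the dotted line marks 22 bases; the triangles left of the line hold few reads.

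Ribosomal protein genes with 1 listed transcript lay above most other genes in small-RNA level per length. Their median was 31.7 CPM per kilobase in rde-3 mut-16(DE6R), 26.97 in mut-16(DE6R) and 19.6 in WT. The median of the other 14200 protein-coding genes with 1 transcript was 0.432 CPM per kilobase in rde-3 mut-16(DE6R), 0.777 CPM per kilobase in mut-16(DE6R) and 1.36 CPM per kilobase in WT. The share of them below the ribosomal protein median was 87.4% in rde-3 mut-16(DE6R), 84.6% in mut-16(DE6R) and 78.2% in WT. The large subunit median was 35.1 CPM per kilobase in rde-3 mut-16(DE6R), 28.4 in mut-16(DE6R) and 20.5 in WT, and the small subunit median 28.6 in rde-3 mut-16(DE6R), 26.6 in mut-16(DE6R) and 17.9 in WT. The middle 50% of the 54 genes spanned 23.8 to 42.6 CPM per kilobase in rde-3 mut-16(DE6R), 19.4 to 32.4 in mut-16(DE6R) and 14.9 to 27.2 in WT.

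A few genes stood above the rest. Among large subunit genes the highest mean level per length was that of rpl-41.2, with 75.9 CPM per kilobase in rde-3 mut-16(DE6R), 96.3 CPM per kilobase in mut-16(DE6R) and 202 CPM per kilobase in WT. Next came rpl-24.2, with 134 CPM per kilobase in rde-3 mut-16(DE6R), 116 CPM per kilobase in mut-16(DE6R) and 107 CPM per kilobase in WT. The gene rpl-34 followed with 57.0 CPM per kilobase in rde-3 mut-16(DE6R), 35.1 CPM per kilobase in mut-16(DE6R) and 82.8 CPM per kilobase in WT. The fourth, rpl-43, had 67.0 CPM per kilobase in rde-3 mut-16(DE6R), 31.6 CPM per kilobase in mut-16(DE6R) and 49.9 CPM per kilobase in WT. The order of the first pair is not fixed: rpl-41.2 is above rpl-24.2 in WT and below it in both mutant groups. The highest small subunit genes were close to each other. The first was rps-29, with 59.4 CPM per kilobase in rde-3 mut-16(DE6R), 33.3 CPM per kilobase in mut-16(DE6R) and 54.3 CPM per kilobase in WT. The gene rps-26, whose protein sits by the mRNA exit, had 50.3 CPM per kilobase in rde-3 mut-16(DE6R), 39.6 CPM per kilobase in mut-16(DE6R) and 42.2 CPM per kilobase in WT. They were followed by rps-11, with 45.7 CPM per kilobase in rde-3 mut-16(DE6R), 42.2 CPM per kilobase in mut-16(DE6R) and 41.9 CPM per kilobase in WT. Then came rps-20, with 48.7 CPM per kilobase in rde-3 mut-16(DE6R), 26.2 CPM per kilobase in mut-16(DE6R) and 52.9 CPM per kilobase in WT. These levels per length differ between the 4 genes by less than they differ between groups for rps-29 and rps-20. Several of the highest genes are short: the 10 genes under 400 bases had medians of 48.1 CPM per kilobase in rde-3 mut-16(DE6R), 29.4 CPM per kilobase in mut-16(DE6R) and 37.3 CPM per kilobase in WT, and the 44 longer ones 30.0 CPM per kilobase in rde-3 mut-16(DE6R), 26.6 CPM per kilobase in mut-16(DE6R) and 17.9 CPM per kilobase in WT. Over the 54 genes, which share libraries, Spearman's rho of length with level was -0.27 in rde-3 mut-16(DE6R), -0.19 in mut-16(DE6R) and -0.29 in WT.

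Summed over all 78 genes, tested or not, reads on ribosomal protein genes were highest in rde-3 mut-16(DE6R) and lowest in WT. The sums were 1253 and 1037 CPM in rde-3 mut-16(DE6R), 882 and 969.5 CPM in mut-16(DE6R), and 794 and 863 CPM in WT. No library of a group fell within the range of another group. The means were 1145 ± 153 CPM in rde-3 mut-16(DE6R), 926 ± 61.9 CPM in mut-16(DE6R) and 829 ± 48.5 CPM in WT (SD, n = 2 each). The log2 ratio of the means was 0.47 for rde-3 mut-16(DE6R) over WT, 0.16 for mut-16(DE6R) over WT and 0.31 for rde-3 mut-16(DE6R) over mut-16(DE6R). With 2 libraries against 2, an exact two-sided permutation test cannot give a p below 0.333, so these sums carry no test.

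Both subunits showed the same order of group means. Large subunit genes summed to 790.1 and 623 CPM in rde-3 mut-16(DE6R), 567 and 591 CPM in mut-16(DE6R), and 535 and 543 CPM in WT, with no overlap between groups. Small subunit genes summed to 463 and 414 CPM in rde-3 mut-16(DE6R), 315 and 378 CPM in mut-16(DE6R), and 260 and 320.0 CPM in WT, where 1 mut-16(DE6R) library lies below a WT library. The large subunit took 61.5% ± 2.12 of the ribosomal protein reads in rde-3 mut-16(DE6R), 62.7% ± 2.37 in mut-16(DE6R) and 65.1% ± 3.10 in WT (SD, n = 2 each), and the ranges of the groups overlapped. By library the share was 63.0% (95% Wilson interval 59.6 to 66.3) and 60.1% (56.5 to 63.5) in rde-3 mut-16(DE6R), 64.3% (60.8 to 67.7) and 61.0% (58.8 to 63.1) in mut-16(DE6R), and 67.3% (63.2 to 71.2) and 62.9% (59.2 to 66.5) in WT. These intervals cover counting error only. The share rests in part on rpl-24.2 with 400 reads and rpl-11.1 with 209, and without them was 56.9% in rde-3 mut-16(DE6R), 58.1% in mut-16(DE6R) and 60.3% in WT. By number, 47 of the 78 genes are of the large subunit. Of the 54 genes with 1 listed transcript 30 are. Over these 54 genes the share was 59.0% in rde-3 mut-16(DE6R), 60.0% in mut-16(DE6R) and 61.4% in WT.

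**Figure D2:**
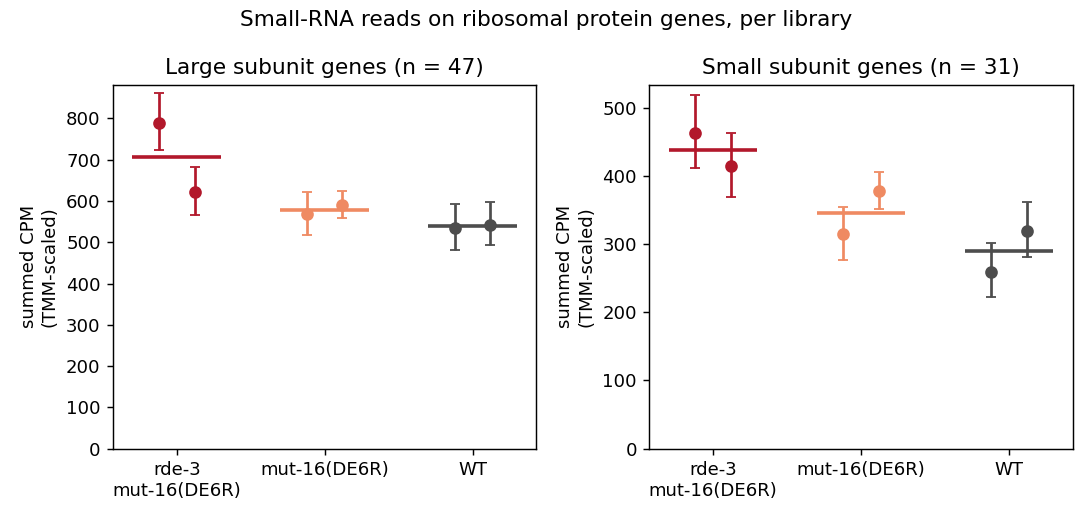
Summed TMM-scaled CPM on the 47 large (left) and 31 small (right) subunit genes; each point is a library with a 95% Poisson interval for counting error, and the line is the mean of 2 libraries. The rde-3 mut-16(DE6R) libraries lie highest in both panels, and mut-16(DE6R) and WT overlap for the small subunit.

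The sums against WT depended on the scaling. As a share of all reads the 78 genes took 0.142% in rde-3 mut-16(DE6R), 0.123% in mut-16(DE6R) and 0.0479% in WT. With library totals in place of TMM factors the median log2 fold change of all tested genes moved by 1.10 for rde-3 mut-16(DE6R) relative to WT and by 1.18 for mut-16(DE6R) relative to WT. Leaving F56H9.8 out of the totals moved it by 1.25 and 0.85, and upper quartile factors moved it by 0.53 and 0.39. Between the mutant groups these 3 settings moved it by -0.09, 0.40 and 0.14. These settings shift all genes alike. Changes of single genes below are relative to the bulk of genes.

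Each gene was tested with edgeR's quasi-likelihood F test on all 6 libraries, with Benjamini-Hochberg adjustment over the 5312 genes that had enough reads; a gene passed at an adjusted p under 0.05. Of the ribosomal protein genes 51 had enough reads, 30 of the large and 21 of the small subunit, with 44 to 400 reads each. The other 27 had 0 to 47 reads, and 20 of them have several listed transcripts. The level required in a library was 11.3 CPM by library totals, not by TMM-scaled sizes. Scaled sizes lay below these totals in WT and above them in the mutant groups. An equal TMM-scaled CPM therefore reached the required level less readily in WT. Missing it in WT does not by itself mark a low TMM-scaled level. Of the 51, 45 (88.2%) entered without the required level in both WT libraries, against 26.1% of all genes tested. The entry of these 45 thus rested on the mutant libraries. Counts and medians over the 51 are therefore descriptions that lean toward rises against WT, and they stand for no more than the genes that entered. The 6 that entered with the required level in both WT libraries were rpl-5, rpl-11.1, rpl-24.2, rpl-34, rpl-41.2 and rps-20. Their median log2 fold change was 0.04 for rde-3 mut-16(DE6R) relative to WT and -0.55 for mut-16(DE6R) relative to WT, beside -0.42 and -0.40 for all 3923 genes that entered this way.

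Against WT, rde-3 mut-16(DE6R) had more small RNAs on 11 ribosomal protein genes and fewer on 2. The rises were in rpl-4, rpl-5, rpl-7A, rpl-13, rpl-14, rpl-15 and rpl-18 of the large subunit and rps-3, rps-5, rps-23 and rps-30 of the small subunit, and the falls in rpl-41.2 and rpl-42. That is 25.5% of the 51 tested, against 64.7% of all 5312 genes; among all genes 26.8% rose and 37.9% fell. The median log2 fold change was 0.66 for the 51 genes, 0.52 for the large and 0.70 for the small subunit, and -0.03 for all genes, and 86.3% of the 51 lay above 0 against 49.1% of all genes. The median SE was 0.49 for the 51 genes and 0.33 for all genes, so a change of a given size passed less readily here. Of the genes that passed, only rpl-5 and rpl-41.2 entered with the required level in both WT libraries. The other rises thus lean on how their genes entered.

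The largest fall was that of rpl-42, a large subunit gene on chromosome II, bases 11092713 to 11094022 of WBcel235. It had 6.26 and 1.37 CPM in rde-3 mut-16(DE6R), 21.8 and 21.8 CPM in mut-16(DE6R) and 15.2 and 18.9 CPM in WT. Its reads numbered 4 and 1 in rde-3 mut-16(DE6R), 18 and 45 in mut-16(DE6R), against 10 and 15 in WT. Both rde-3 mut-16(DE6R) libraries lie below every other library. Both mut-16(DE6R) libraries lie above WT, but this rise did not pass (log2 fold change 0.34 ± 0.37, SE, edgeR adjusted p 0.444). For rde-3 mut-16(DE6R) against WT, edgeR's quasi-likelihood test gave a log2 fold change of -2.19 ± 0.65 (SE, edgeR adjusted p 0.00146). By read counts this is 4.71-fold lower (95% interval for counting error 1.77 to 15.8). The other fall, in rpl-41.2 (chromosome I, bases 4790292 to 4790642), separated WT from both mutant groups. This gene had 21.9 and 20.6 CPM in rde-3 mut-16(DE6R), 25.4 and 28.5 CPM in mut-16(DE6R) and 56.2 and 56.7 CPM in WT. Its log2 fold change was -1.41 ± 0.31 (SE; edgeR adjusted p 1.82e-05). Under library totals, with or without F56H9.8, neither fall passed. With the compared groups alone rpl-42 did not have enough reads to be tested, since it entered through the mut-16(DE6R) libraries.

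Among the rises, rpl-14 (chromosome I, bases 9689197 to 9690081) had the largest log2 fold change. It had 15.6 and 17.8 CPM in rde-3 mut-16(DE6R), 12.1 and 9.19 CPM in mut-16(DE6R) and 6.08 and 3.78 CPM in WT, and the groups do not overlap. This is a log2 fold change of 1.77 ± 0.61 (SE; edgeR adjusted p 0.00631). Its annotated exons overlap those of C04F12.5 on the other strand, which is listed at 0 reads in all 6 libraries. The protein encoded by rpl-4 lines the exit tunnel of the large subunit. The gene had 43.8 and 17.8 CPM in rde-3 mut-16(DE6R), 18.1 and 21.3 CPM in mut-16(DE6R) and 9.11 and 11.3 CPM in WT. The rde-3 mut-16(DE6R) libraries differ widely here, and the lower of them lies below both mut-16(DE6R) libraries but above both WT libraries. For rpl-4 the log2 fold change was 1.53 ± 0.44 (SE; edgeR adjusted p 0.00102).

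The rpl-5 protein binds 5S rRNA. Its gene had 53.2 and 41.1 CPM in rde-3 mut-16(DE6R), 36.3 and 31.4 CPM in mut-16(DE6R) and 27.3 and 22.7 CPM in WT, and the order of the groups holds without overlap. Against WT rpl-5 had a log2 fold change of 0.91 ± 0.31 (SE; edgeR adjusted p 0.00667). The same order without overlap was seen for rpl-7A, with 21.9 and 17.8 CPM in rde-3 mut-16(DE6R), 9.68 and 11.6 CPM in mut-16(DE6R) and 7.60 and 7.56 CPM in WT, and a log2 fold change of 1.37 ± 0.53 (SE; edgeR adjusted p 0.0164). Likewise rpl-13 had 23.5 and 23.3 CPM in rde-3 mut-16(DE6R), 20.6 and 19.4 CPM in mut-16(DE6R) and 9.11 and 11.3 CPM in WT; both mutant groups lie near each other and above WT. For rpl-13 this is a log2 fold change of 1.17 ± 0.47 (SE; edgeR adjusted p 0.0206).

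For rpl-15 and rpl-18, rde-3 mut-16(DE6R) stood apart from the other groups. The values of rpl-15 were 26.6 and 37.0 CPM in rde-3 mut-16(DE6R), 15.7 and 18.9 CPM in mut-16(DE6R) and 16.7 and 12.6 CPM in WT. Those of rpl-18 were 31.3 and 24.7 CPM in rde-3 mut-16(DE6R), 13.3 and 16.4 CPM in mut-16(DE6R) and 13.7 and 13.9 CPM in WT. In both genes mut-16(DE6R) and WT overlap. The log2 fold change against WT was 1.14 ± 0.40 (SE; edgeR adjusted p 0.00732) for rpl-15 and 1.01 ± 0.42 (SE; edgeR adjusted p 0.0270) for rpl-18.

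In the small subunit, the protein of rps-3 lies at the mRNA entry of the ribosome. Its gene had 23.5 and 27.4 CPM in rde-3 mut-16(DE6R), 21.8 and 17.4 CPM in mut-16(DE6R) and 16.7 and 5.04 CPM in WT, with no overlap between groups and a wide gap between the WT libraries. The change in rps-3 was 1.29 ± 0.46 (SE; edgeR adjusted p 0.00838) on the log2 scale. The rps-23 protein lies by the decoding centre. The gene had 28.2 and 23.3 CPM in rde-3 mut-16(DE6R), 10.9 and 18.4 CPM in mut-16(DE6R) and 7.60 and 15.1 CPM in WT, where mut-16(DE6R) and WT overlap. Its log2 fold change was 1.12 ± 0.44 (SE; edgeR adjusted p 0.0199). The gene rps-30 had 17.2 and 26.1 CPM in rde-3 mut-16(DE6R), 14.5 and 13.5 CPM in mut-16(DE6R) and 6.08 and 10.1 CPM in WT and a log2 fold change of 1.39 ± 0.50 (SE; edgeR adjusted p 0.0103), with the groups apart. The gene rps-5 had 11.0 and 17.8 CPM in rde-3 mut-16(DE6R), 9.68 and 11.6 CPM in mut-16(DE6R) and 6.08 and 3.78 CPM in WT, with the mutant groups overlapping. Its log2 fold change was 1.57 ± 0.63 (SE; edgeR adjusted p 0.0201).

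Among genes that did not pass against WT, the smallest p-values in the large subunit were those of rpl-35 (log2 fold change 1.01 ± 0.56 (SE; edgeR adjusted p 0.100)) and rpl-27 (0.87 ± 0.49 (SE; edgeR adjusted p 0.106)). In the small subunit they were those of rps-0 (0.99 ± 0.47 (SE; edgeR adjusted p 0.0535)) and rps-1 (0.98 ± 0.49 (SE; edgeR adjusted p 0.0660)). DESeq2 called 3 of the 13, rpl-4, rpl-41.2 and rpl-42. Leaving out 1 library ended these calls (log2 fold changes in parentheses) without WT replicate 1: rpl-13 (1.00), rpl-18 (0.96), rpl-7A (1.34), rps-23 (0.72), rps-30 (1.08) and rps-5 (1.88). Without WT replicate 2 those that ended were rpl-13 (1.29), rpl-14 (1.39), rpl-15 (0.88), rpl-18 (0.96), rpl-5 (0.72), rpl-7A (1.31), rps-3 (0.56) and rps-5 (1.19). Without rde-3 mut-16(DE6R) replicate 1 the calls of rpl-18 (0.86), rpl-4 (0.80), rpl-5 (0.75), rpl-7A (1.24) and rps-23 (1.01) ended, and without rde-3 mut-16(DE6R) replicate 2 those of rpl-13 (1.16), rpl-14 (1.66), rpl-15 (0.86), rpl-42 (-1.45), rps-3 (1.16), rps-30 (1.04) and rps-5 (1.15). With no filter on low counts the calls of rpl-18 and rps-5 ended. The median of the tested genes was 0.31 without rde-3 mut-16(DE6R) replicate 1.

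**Figure D3:**
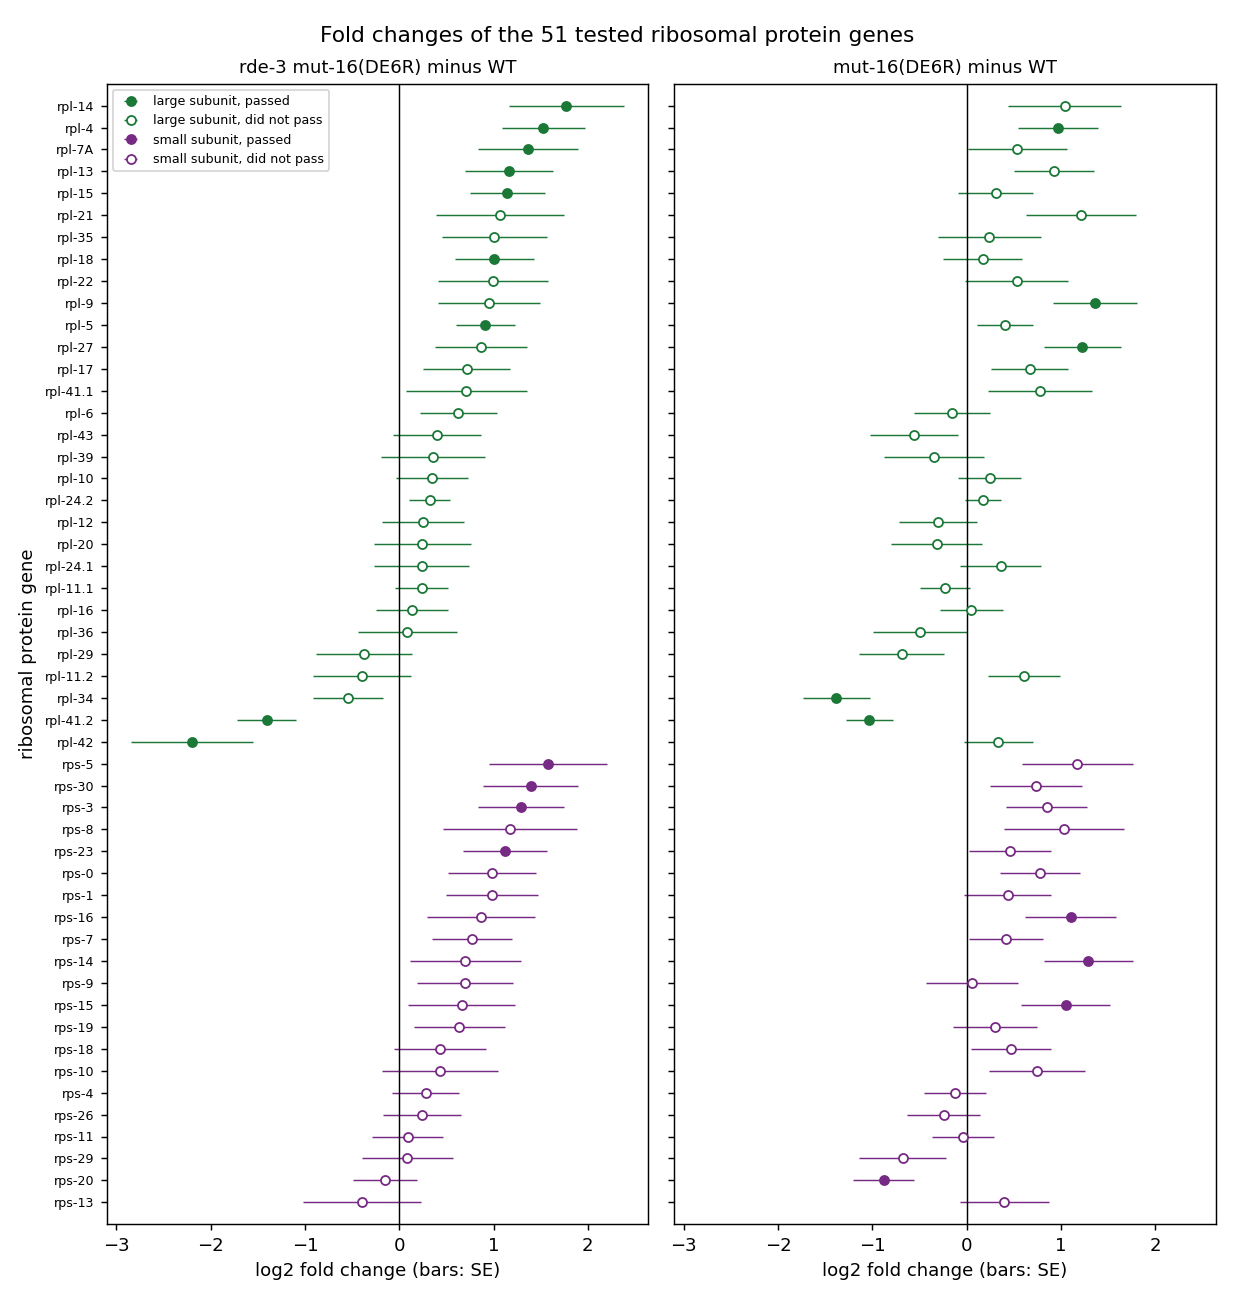
Log2 fold changes (points; bars are SE) of the 51 tested ribosomal protein genes in rde-3 mut-16(DE6R) relative to WT (left) and mut-16(DE6R) relative to WT (right), large subunit above, small subunit below, in the order of the left panel; filled points passed at an adjusted p under 0.05. On the left 11 filled points lie above 0 and 2 below, on the right 6 and 3; both panels share the WT libraries.

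Against WT, mut-16(DE6R) had more small RNAs on 6 ribosomal protein genes and fewer on 3. The rises were in rpl-4, rpl-9, rpl-27, rps-14, rps-15 and rps-16 and the falls in rpl-34, rpl-41.2 and rps-20. That is 17.6% of the 51 tested, against 58.7% of all 5312 genes; among all genes 22.1% rose and 36.6% fell. The median log2 fold change was 0.40 for the 51 genes, 0.28 for the large and 0.46 for the small subunit, and -0.09 for all genes. Both comparisons share the WT libraries, and 2 genes, rpl-4 and rpl-41.2, passed in both, which is 2 of 9 here and 2 of 13 above. No rise here was in a gene that entered with the required level in both WT libraries. The 6 rises thus lean on how their genes entered.

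The falls were in 3 of the 6 genes that entered with the required level in both WT libraries. The others of these 6, rpl-5, rpl-11.1 and rpl-24.2, did not pass. A fall is harder to see in a gene with few reads in WT, though rpl-42, outside these 6, fell in rde-3 mut-16(DE6R) relative to WT. For rpl-34 (chromosome IV, bases 12268995 to 12269490) the values were 18.8 and 23.3 CPM in rde-3 mut-16(DE6R), 15.7 and 10.2 CPM in mut-16(DE6R) and 25.8 and 35.3 CPM in WT. WT is highest without overlap, and mut-16(DE6R) is lowest. By edgeR's quasi-likelihood test rpl-34 had a log2 fold change of -1.38 ± 0.36 (SE; edgeR adjusted p 2.74e-04). For rpl-41.2, whose values are given above, it was -1.03 ± 0.25 (SE; edgeR adjusted p 1.14e-04), and it was 0.16 under library totals. For rps-20 the values were 29.7 and 27.4 CPM in rde-3 mut-16(DE6R), 10.9 and 19.8 CPM in mut-16(DE6R) and 24.3 and 37.8 CPM in WT; mut-16(DE6R) stands below both other groups, which overlap each other. For rps-20 the log2 fold change was -0.88 ± 0.32 (SE; edgeR adjusted p 0.0132), and 0.31 under library totals. Under library totals, with or without F56H9.8, none of these 3 falls passed. With no filter on low counts rpl-41.2 and rps-20 did not pass, and 10 ribosomal protein genes rose and 1 fell; with upper quartile factors rps-20 did not pass.

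The largest rise was that of rpl-9. It had 12.5 and 19.2 CPM in rde-3 mut-16(DE6R), 21.8 and 21.3 CPM in mut-16(DE6R) and 6.08 and 10.1 CPM in WT, with mut-16(DE6R) highest. Against WT rpl-9 had a log2 fold change of 1.36 ± 0.45 (SE; edgeR adjusted p 0.00497). A like order was seen for rpl-27, with 15.6 and 21.9 CPM in rde-3 mut-16(DE6R), 29.0 and 22.3 CPM in mut-16(DE6R) and 6.08 and 13.9 CPM in WT, and a log2 fold change of 1.23 ± 0.41 (SE; edgeR adjusted p 0.00562). For rpl-4, whose values are given above, the log2 fold change was 0.97 ± 0.42 (SE; edgeR adjusted p 0.0378).

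In the small subunit, rps-14 had 6.26 and 17.8 CPM in rde-3 mut-16(DE6R), 21.8 and 17.4 CPM in mut-16(DE6R) and 10.6 and 5.04 CPM in WT. Both mut-16(DE6R) libraries lie above WT, and the rde-3 mut-16(DE6R) libraries are spread over the range of both. For rps-14 this is a log2 fold change of 1.29 ± 0.47 (SE; edgeR adjusted p 0.0127). The gene rps-15 had 11.0 and 15.1 CPM in rde-3 mut-16(DE6R), 15.7 and 17.9 CPM in mut-16(DE6R) and 9.11 and 7.56 CPM in WT, with the groups apart, and a log2 fold change of 1.05 ± 0.47 (SE; edgeR adjusted p 0.0444). The gene rps-16 had 9.39 and 17.8 CPM in rde-3 mut-16(DE6R), 9.68 and 19.4 CPM in mut-16(DE6R) and 4.56 and 10.1 CPM in WT. The groups overlap for rps-16 although the test passed, with a log2 fold change of 1.11 ± 0.48 (SE; edgeR adjusted p 0.0396); T01C3.11, whose exons overlap it on the other strand, is listed at 0 reads.

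The genes closest to passing were rpl-13 (0.92 ± 0.43 (SE; edgeR adjusted p 0.0514)), rpl-21 (1.21 ± 0.58 (SE; edgeR adjusted p 0.0616)), rps-5 (1.17 ± 0.59 (SE; edgeR adjusted p 0.0741)) and rps-3 (0.85 ± 0.43 (SE; edgeR adjusted p 0.0789)). DESeq2 called 2 of the 9, rpl-34 and rpl-41.2. Leaving out 1 library ended these calls (log2 fold changes in parentheses) without WT replicate 1: rpl-27 (0.79), rpl-4 (0.82), rpl-9 (1.06), rps-15 (1.16) and rps-16 (0.67). Without WT replicate 2 those that ended were rpl-4 (1.11), rps-14 (0.77), rps-15 (0.87) and rps-20 (-0.54). Without mut-16(DE6R) replicate 1 the calls of rps-15 (1.10) and rps-20 (-0.67) ended, and without mut-16(DE6R) replicate 2 those of rpl-34 (-0.98), rpl-4 (0.79), rpl-9 (1.37), rps-15 (0.90) and rps-16 (0.34). Without this last library the median of the tested genes was 0.26. With a replicate block rps-15 and rps-16 did not pass.

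Between the mutant groups 4 ribosomal protein genes passed. In rde-3 mut-16(DE6R) against mut-16(DE6R), rpl-15 and rpl-18 rose and rpl-42 and rpl-11.2 fell, all of the large subunit, and no small subunit gene of the 21 tested passed with edgeR or with DESeq2 (1 had an unadjusted p under 0.05 with edgeR). That is 7.84% of the 51 tested, against 42.8% of all 5312 genes; among all genes 16.5% rose and 26.2% fell. The median log2 fold change was 0.40 for the 51 genes, 0.46 for the large and 0.36 for the small subunit, and -0.02 for all genes. The median SE was 0.40 for the 51 genes and 0.31 for all genes, and 37 of the 51 lay above 0. With F56H9.8 left out of the totals 23 rose and 1 fell, and with upper quartile factors 9 rose and 1 fell.

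A gene that entered the test through the mut-16(DE6R) libraries alone leans toward a fall in this comparison, and rpl-42 entered in this way. Its fall was the largest of the 51 genes. Its log2 fold change was -2.53 ± 0.56 (SE; edgeR adjusted p 3.22e-05) by edgeR's quasi-likelihood test, or 5.96-fold lower by read counts (95% interval for counting error 2.42 to 19.0). It passed under all 15 alternatives run, including each left-out library and DESeq2, with log2 fold changes between -3.86 and -1.79. The gene rpl-11.2, for a protein that binds 5S rRNA, had 14.1 and 8.23 CPM in rde-3 mut-16(DE6R), 20.6 and 22.7 CPM in mut-16(DE6R) and 16.7 and 12.6 CPM in WT. The rde-3 mut-16(DE6R) libraries lie below mut-16(DE6R) and overlap WT. For rpl-11.2 the log2 fold change was -1.001 ± 0.42 (SE; edgeR adjusted p 0.0415). For rpl-15 and rpl-18, with values given above, the log2 fold changes were 0.84 ± 0.33 (SE; edgeR adjusted p 0.0273) and 0.84 ± 0.35 (SE; edgeR adjusted p 0.0426).

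DESeq2 ended the calls of rpl-11.2, rpl-15 and rpl-18, with adjusted p of 0.291, 0.291 and 0.308. Under library totals, and with no filter on low counts, rpl-15 and rpl-18 did not pass. With F56H9.8 left out of the totals, and with upper quartile factors, rpl-11.2 did not pass, and with median-ratio factors or a replicate block rpl-18 did not. Next in order of p were rpl-43 (0.96 ± 0.44 (SE; edgeR adjusted p 0.0629)) and rpl-6 (0.78 ± 0.36 (SE; edgeR adjusted p 0.0678)), then rps-20 (0.73 ± 0.34 (SE; edgeR adjusted p 0.0681)) and rps-23 (0.66 ± 0.36 (SE; edgeR adjusted p 0.125)) in the small subunit. Leaving out 1 library ended these calls (log2 fold changes in parentheses): without mut-16(DE6R) replicate 1, rpl-11.2 (-1.06), rpl-15 (0.75) and rpl-18 (0.73); without mut-16(DE6R) replicate 2, rpl-11.2 (-0.90), rpl-15 (1.02) and rpl-18 (1.05). Without rde-3 mut-16(DE6R) replicate 1 the call of rpl-18 (0.68) ended, and without rde-3 mut-16(DE6R) replicate 2 those of rpl-11.2 (-0.65), rpl-15 (0.56) and rpl-18 (1.00).

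**Figure D4:**
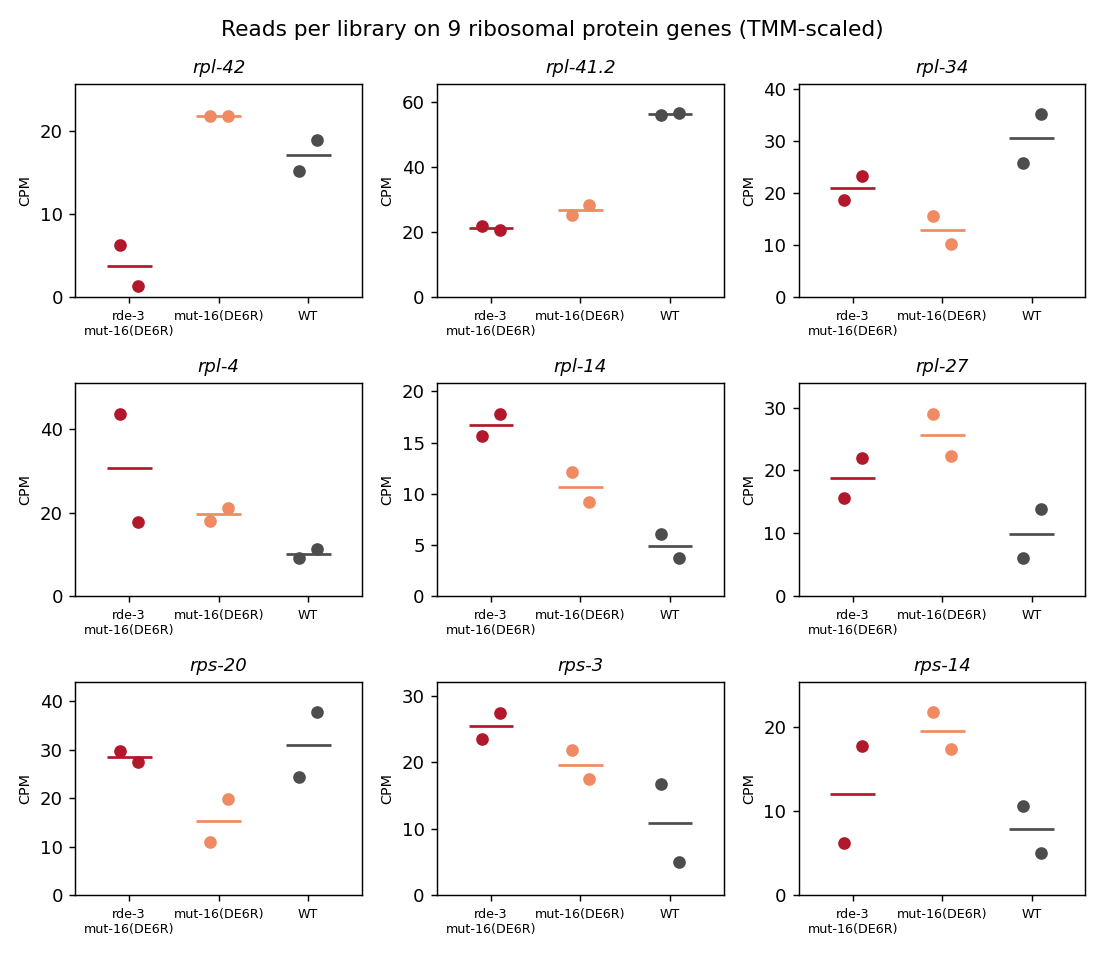
TMM-scaled CPM in each library (points) and the group mean (lines) for 9 ribosomal protein genes that passed in at least 1 comparison. The gene rpl-42 is low in rde-3 mut-16(DE6R), rpl-41.2 is high in WT, and rpl-34 and rps-20 are lowest in mut-16(DE6R).

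Among genes whose names differ by a suffix alone, a gene could pass where the other of like name did not. A like name does not by itself make genes copies of each other. Reads of near-identical copies could be split or shared by the counting, so their values are uncertain. In rde-3 mut-16(DE6R) against mut-16(DE6R), rpl-11.2 fell, whereas rpl-11.1, with 48.5 and 41.1 CPM in rde-3 mut-16(DE6R), 37.5 and 30.0 CPM in mut-16(DE6R) and 34.9 and 40.3 CPM in WT, had a log2 fold change of 0.46 ± 0.26 (SE; edgeR adjusted p 0.141) and did not pass; the difference between the copies was not tested. Of the genes named rpl-24, rpl-24.2 had 87.6 and 68.6 CPM in rde-3 mut-16(DE6R), 60.5 and 74.5 CPM in mut-16(DE6R) and 66.8 and 57.95 CPM in WT. The gene rpl-24.1 had 18.8 and 11.0 CPM in rde-3 mut-16(DE6R), 19.4 and 14.5 CPM in mut-16(DE6R) and 13.7 and 11.3 CPM in WT. Neither passed in any comparison, and whether they encode the same protein was not checked. Against WT in rde-3 mut-16(DE6R), rpl-41.2 fell while rpl-41.1, with 14.1 and 6.86 CPM in rde-3 mut-16(DE6R), 10.9 and 10.6 CPM in mut-16(DE6R) and 4.56 and 7.56 CPM in WT, had a log2 fold change of 0.71 ± 0.64 (SE; edgeR adjusted p 0.326) and did not pass; this difference was not tested either. The gene rpl-36 had 14.1 and 11.0 CPM in rde-3 mut-16(DE6R), 6.05 and 9.19 CPM in mut-16(DE6R) and 10.6 and 12.6 CPM in WT and did not pass, and rpl-36.A had 2 reads in 1 rde-3 mut-16(DE6R) library and 0 elsewhere. The gene rpl-25.1 held 6 and 2 reads in rde-3 mut-16(DE6R), 0 and 10 in mut-16(DE6R), against 1 and 0 in WT, and rpl-25.2 none; rpl-7 held 1 read in all, beside rpl-7A above, which has a different protein despite the like name.

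The genes lie on all 6 nuclear chromosomes, 23 on I, 10 on II, 18 on III, 17 on IV, 8 on V and 2 on X. Of the 26 calls over the 3 comparisons, only that of rpl-11.2 was on the X, where 1 gene was tested. Among all genes 26.8% rose and 37.9% fell in rde-3 mut-16(DE6R) relative to WT, and 22.1% and 36.6% in mut-16(DE6R) relative to WT. In rde-3 mut-16(DE6R) relative to WT 5 of 13 tested genes rose on chromosome IV, and 3 of 15 rose and 1 fell on I. On II 1 of 6 rose and 1 fell, on III 1 of 12 rose, and on V 1 of 4 rose. A snoRNA gene lies inside 13 of the genes on the same strand. Of the 9 of these that were tested, 4 rose in rde-3 mut-16(DE6R) and 1 in mut-16(DE6R) relative to WT, and none fell. Of the 42 tested genes without one, 7 rose and 2 fell in rde-3 mut-16(DE6R), and 5 rose and 3 fell in mut-16(DE6R). The median log2 fold changes with and without a snoRNA gene were close in both comparisons with WT. They were 0.63 and 0.68 in rde-3 mut-16(DE6R), and 0.36 and 0.41 in mut-16(DE6R), relative to WT. These medians lay further apart between the mutant groups, at 0.66 with and 0.33 without a snoRNA gene. This gap was not tested. Exons of 9 genes overlap those of a gene on the other strand, whose reads cannot be told apart since the use of strand in counting is not given in the sources used here.

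Other genes of translation were taken from lists by name or function, and passed by the same edgeR test over all genes. Their counts stand beside 26.8% of all genes that rose and 37.9% that fell in rde-3 mut-16(DE6R) relative to WT, and 22.1% that rose and 36.6% that fell in mut-16(DE6R) relative to WT. The stalk protein gene rla-0, one of 3 tested of the 6 ribosome genes not named rpl- or rps-, rose in rde-3 mut-16(DE6R) relative to WT (log2 fold change 0.92 ± 0.33) and against mut-16(DE6R) (0.75 ± 0.28). In mut-16(DE6R) relative to WT the 3 tested, rla-0, rla-2 and ubq-2, had log2 fold changes of 0.17, 0.49 and 0.14 and did not pass. Of the 27 tested of 33 ribosome biogenesis genes, 17 rose and 2 fell in rde-3 mut-16(DE6R) relative to WT, and 12 rose and 1 fell in mut-16(DE6R) relative to WT. They include dkc-1, the pseudouridine synthase of rRNA (log2 fold change 0.93 ± 0.15 and 1.17 ± 0.13 in these comparisons). Of the 23 tested of 35 initiation factor genes, 9 rose and 0 fell in rde-3 mut-16(DE6R) relative to WT, and 8 rose and 1 fell in mut-16(DE6R) relative to WT; eif-3.H, of initiation factor 3, had 1.42 ± 0.25 and 1.03 ± 0.24. Of the 4 tested of 10 elongation and termination genes, 2 rose and 0 fell in rde-3 mut-16(DE6R), and 0 rose and 1 fell in mut-16(DE6R), namely eef-1A.1, which brings aminoacyl-tRNA to the ribosome (-0.98 ± 0.21).

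Of the 64 tested of 70 genes of the mitochondrial ribosome, 26 rose and 3 fell in rde-3 mut-16(DE6R) relative to WT, and 13 rose and 2 fell in mut-16(DE6R) relative to WT. They include mrpl-4 (log2 fold change 1.47 ± 0.22 and 1.34 ± 0.20), and mrpl-36, which fell in rde-3 mut-16(DE6R) (-2.47 ± 0.27). Of the 16 tested of 31 aminoacyl-tRNA synthetase genes, 6 rose and 2 fell in rde-3 mut-16(DE6R), and 5 rose and 3 fell in mut-16(DE6R); lars-1 had 1.25 ± 0.19 and 0.92 ± 0.18. As other abundant mRNAs, 14 of 21 glycolysis and cytoskeleton genes were tested, of which 5 rose and 3 fell in rde-3 mut-16(DE6R), and 3 rose and 2 fell in mut-16(DE6R). Among these hsp-90, a chaperone, fell in both, with 1 read in each rde-3 mut-16(DE6R) library, 9 and 18 reads in mut-16(DE6R), against 107 and 141 reads in WT. In rde-3 mut-16(DE6R) against mut-16(DE6R), where 16.5% of all genes rose and 26.2% fell, 3 biogenesis genes rose and 1 fell, 7 initiation genes rose and 2 fell, 2 elongation genes rose, 6 mitochondrial ribosome genes rose and 2 fell, 1 synthetase gene rose and 1 fell, and 3 glycolysis and cytoskeleton genes rose and 2 fell. The medians of these lists also lay above the median of all genes in the 3 comparisons, except that of elongation and termination genes in mut-16(DE6R) relative to WT (-0.11, beside -0.09 for all genes), and no list was tested against another. The share that entered without the required level in both WT libraries was 26.1% for all genes, 3.7% for biogenesis, 26.1% for initiation, 28.1% for the mitochondrial ribosome, 25% for synthetases, 42.9% for glycolysis and cytoskeleton, 2 of 3 for the other ribosome genes and 0 of 4 for elongation and termination. A median against WT leans upward where this share is high.

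**Figure D5:**
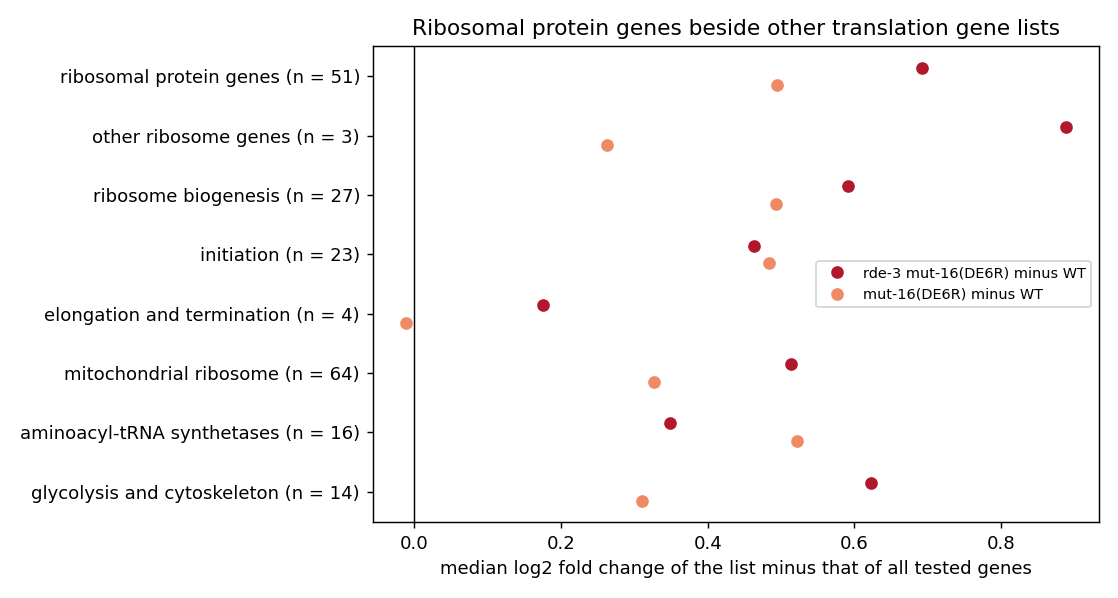
Median log2 fold change of the tested genes of each list minus the median of all tested genes, for rde-3 mut-16(DE6R) relative to WT and mut-16(DE6R) relative to WT, which share the WT libraries. Ribosomal protein genes lie at 0.69 and 0.50, but 88.2% of them entered the test without the required level in both WT libraries, against 26.1% of all genes, so their place against WT leans to the right; n is the number of genes tested.

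Small RNAs on marker genes of tissues also moved between the groups, and in bulk samples fewer cells of a type and fewer small RNAs per cell cannot be told apart. The counts below stand beside 26.8% of all genes that rose and 37.9% that fell in rde-3 mut-16(DE6R) relative to WT. In mut-16(DE6R) relative to WT 22.1% rose and 36.6% fell, and between the mutant groups 16.5% rose and 26.2% fell. All 8 tested of 12 intestine markers rose in both mutant groups against WT, but 7 of the 8 entered without the required level in both WT libraries. In rde-3 mut-16(DE6R) against mut-16(DE6R) 7 rose. The list summed to 587 to 726 CPM in rde-3 mut-16(DE6R), 284 to 306 CPM in mut-16(DE6R) and 59.2 to 76.8 CPM in WT; elt-2 was at 0 in rde-3 mut-16(DE6R), ges-1 in mut-16(DE6R), and asp-2, cpr-1, elt-2 and vit-6 in WT. Of 8 muscle markers 4 were tested, of which 4 rose in rde-3 mut-16(DE6R) relative to WT, 2 rose in mut-16(DE6R) relative to WT and 4 rose between the mutant groups. This list summed to 214 to 216 CPM in rde-3 mut-16(DE6R), 65.3 to 70.2 CPM in mut-16(DE6R) and 39.5 to 41.6 CPM in WT, with lev-11 at 0 in both mutant groups. Of 8 neuron markers 4 were tested: 3 fell in each comparison, and 1 rose in mut-16(DE6R) relative to WT. That list summed to 24.7 to 26.6 CPM in rde-3 mut-16(DE6R), 129 to 141 CPM in mut-16(DE6R) and 331 to 341 CPM in WT, with ric-4 at 0 in all groups, rab-3 also in rde-3 mut-16(DE6R) and WT, ida-1 in rde-3 mut-16(DE6R), and unc-31 in mut-16(DE6R) and WT.

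Of 13 germline markers 11 were tested, of which 8 rose and 1 fell in rde-3 mut-16(DE6R) relative to WT, 3 rose and 1 fell in mut-16(DE6R) relative to WT, and 5 rose in rde-3 mut-16(DE6R) against mut-16(DE6R). That list summed to 1900 to 1904 CPM in rde-3 mut-16(DE6R), 1454 to 1524 CPM in mut-16(DE6R) and 1470.4 to 1684 CPM in WT, with pgl-1 at 0 in both mutant groups. The 9 sperm markers, none with enough reads to be tested, summed to 0 to 2.74 CPM in rde-3 mut-16(DE6R), 0 to 7.26 CPM in mut-16(DE6R) and 0 to 6.30 CPM in WT. The sums of intestine and muscle markers had the order of the ribosomal protein sums, highest in rde-3 mut-16(DE6R) and lowest in WT without overlap, as had those of the biogenesis, initiation, mitochondrial ribosome and synthetase lists and of the other ribosome genes. Germline markers were also highest in rde-3 mut-16(DE6R), but mut-16(DE6R) and WT overlapped, and neuron markers had the opposite order. Of the tested markers 7 of 8 for intestine, 3 of 4 for muscle, 1 of 4 for neurons and 0 of 11 for the germline entered without the required level in both WT libraries. Counts of intestine and muscle markers that rose against WT therefore lean upward. The part of tissue makeup, worm stage and the share of reads on F56H9.8 in the ribosomal protein values was not tested.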

How the data were processed

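Small RNAs of worms were extracted with Trizol, treated with PIR-1, a phosphatase that makes triphosphorylated small RNAs open to ligation, ligated to linkers, amplified and size-selected on native gels, per the labels' protocols. Per the submitters' processing notes, cutadapt 4.9, Bowtie 1.3.1 and the WBcel235 genome were used; the sources used here do not give the counting program, the strand setting, or how reads with several matches and PCR duplicates were handled. The authors deposited whole-number read counts per transcript, with each transcript's length as another column, for the 6 libraries described. Of the 26 libraries of the series, the values of the other 20, in 20 columns of reads on a transgene, were not used here.

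The table listed 34324 identifiers, of which 33755 matched a transcript name of the annotation, 190 a sequence name and 379 none; a row named * held 0 reads. The deposited length was the summed exon length for 33720. Counts were summed per gene (22277 genes) and tested with edgeR 4.0.16 in R 4.3.3 (robust quasi-likelihood F test, TMM factors, 1 coefficient per group, filterByExpr with minimum count 10 and minimum total 15, Benjamini-Hochberg adjustment). The fit had 5312 genes with 98.3% of the reads, 3 residual degrees of freedom and a coefficient of biological variation of 0.0401. The SE is the absolute log2 fold change divided by the square root of F. The fit was also run on simulated counts with few changed genes and otherwise equal library make-up. That run does not probe the choice of scaling. Tables and figures used Python 3.11.15. DESeq2 1.42.0, other scalings, no filter, a replicate block, the compared groups alone and each library left out served as alternatives; 1 more, genes with 1 listed transcript alone, was chosen after seeing the data.

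The genes and the lists were chosen with earlier results of these data known. Named are all ribosomal protein genes that passed, the 4 of each subunit with the highest level per length, genes whose names differ by a suffix alone, the 2 of each subunit with the next smallest p per comparison, and up to 3 genes per other list. Counts of rps- and rpl- genes by chromosome and by snoRNA are described beside them. The level per length was ranked among genes with 1 listed transcript.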

Additional observations from a re-analysis of the deposited data

How the results depend on the processing

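The number of ribosomal protein genes called depended on the scaling and the tool. For mut-16(DE6R) relative to WT the 9 calls became 42 with library totals, 37 with F56H9.8 left out of them, 22 with upper quartile factors, 2 with DESeq2, 15 with the compared groups alone and 14 with genes of 1 listed transcript (chosen after seeing the data), and 5 to 10 with 1 library left out. For rde-3 mut-16(DE6R) relative to WT the 13 became 45 with library totals and also with totals without F56H9.8, 33 with upper quartile factors, 3 with DESeq2 and 7 to 13 with 1 library left out. For rde-3 mut-16(DE6R) against mut-16(DE6R) the 4 became 2 with library totals, 24 with F56H9.8 left out of them, 10 with upper quartile factors, 1 with DESeq2, 2 with no filter and 1 to 5 with 1 library left out. Median-ratio factors gave 9, 13 and 3. With the compared groups alone 12 were called for rde-3 mut-16(DE6R) relative to WT, and rpl-42 was not among them. Under totals, totals without F56H9.8 and upper quartile factors, rises and falls numbered 42 and 0, 37 and 0, and 20 and 2 for mut-16(DE6R) relative to WT, against 6 and 3 with TMM (10 and 1 with no filter); they numbered 45 and 0, 45 and 0, and 31 and 2 for rde-3 mut-16(DE6R) relative to WT, against 11 and 2; and 0 and 2, 23 and 1, and 9 and 1 between the mutant groups, against 2 and 2. These scalings move all genes alike. Over all genes DESeq2 called 2053 (482 higher and 1571 lower) against 3117 for mut-16(DE6R) over WT, and 1205 (217 and 988) against 2271 between the mutant groups.

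The median log2 fold change for mut-16(DE6R) relative to WT was 0.40, and 1.57, 1.24 and 0.79 under these 3 scalings, 0.75 with no filter, 0.57 with the compared groups alone, 0.53 with genes of 1 listed transcript and 0.26 to 0.40 with 1 library left out. For rde-3 mut-16(DE6R) relative to WT it was 0.66, and 1.75, 1.90 and 1.19 under the scalings and 0.31 to 0.70 with 1 library left out. Between the mutant groups it was 0.40, and 0.80 with totals without F56H9.8 and 0.065 with no filter. The log2 ratio of summed levels was 1.35, 1.02 and 0.56 under these scalings for mut-16(DE6R) relative to WT (0.16 with TMM), 1.57, 1.72 and 1.00 for rde-3 mut-16(DE6R) relative to WT (0.47 with TMM), and 0.71 with totals without F56H9.8 between the mutant groups (0.31 with TMM). The large subunit share without rpl-24.2 and rpl-11.1 was 56.9% in rde-3 mut-16(DE6R), 58.1% in mut-16(DE6R) and 60.3% in WT.

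A log2 fold change turned positive for rpl-41.2 (0.16) and rps-20 (0.31) in mut-16(DE6R) relative to WT under library totals, and for rps-20 in rde-3 mut-16(DE6R) relative to WT under library totals (0.95) and totals without F56H9.8 (1.10). Libraries of equal replicate number showed no shared deviation over genes, with correlations of -0.00358, -0.0172 and -0.0261. This cannot tell whether they were prepared together, which the labels do not say. With the number as a replicate block the calls were 7, 13 and 3, and the medians 0.40, 0.66 and 0.39, for mut-16(DE6R) relative to WT, rde-3 mut-16(DE6R) relative to WT and rde-3 mut-16(DE6R) against mut-16(DE6R). With 0 to 154 reads per gene and library, and 2 libraries per group, small changes of single genes were not detectable at this depth.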
